A study of Mus musculus with 12 samples.

Results

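The genes described here are the nuclear-encoded genes of the mitochondrial respiratory chain and the ATP synthase in mouse mandibular lymph nodes. They are the protein-coding genes of the deposited count table whose symbol begins with Nduf, Uqcr, Atp5, Sdh, or Cox followed by a digit. The rule found 107 of the 56941 gene IDs in the table, and it used annotation only, no measured value. Of the 107 members, 103 had counts and were tested. The other 4 (Cox7b2, Cox8c, Ndufa4l2 and a second entry named Atp5o) had 0 counts in all 12 libraries, which at a limit of 3 counts per library allows at most 0.0812 counts per M scaled counts (CPM). No member with counts was lost to the filter on low values. The members were sorted by role into complex I (7 catalytic core subunits, 29 accessory subunits and 8 assembly factors), complex II (4 subunits, 4 assembly factors), complex III (8 subunits), complex IV (11 widely expressed subunits, 9 tissue-restricted isoforms or related proteins, 9 assembly factors) and ATP synthase (5 genes of the F1 part, 13 of the membrane part and stalk).

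The study compared wild-type mice (WT) with mice lacking the microRNA miR-451a (KO). All of the animals had been sensitized on the skin with dinitrofluorobenzene (DNFB), a hapten, 100 µl at 0.5% on the abdomen on days 0, 1 and 2. Nodes of the WT_se and KO_se groups were taken on day 9 without further treatment, and those of WT_DTH and KO_DTH on day 10, 24 hours after 20 µl of 1% DNFB was put on the left ear. Each group had 3 libraries. Challenge and day of harvest cannot be told apart. Strain, age and sex are not stated in the labels. They also do not say whether a group's libraries are separate animals, and the spread behind each p-value may be technical. No group without sensitization is among the samples, and the deletion is not restricted to a cell type in the labels. Mir451a itself was not analysed here, so the genotype labels have no check on the deleted gene.

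Complexes I and II pass electrons from NADH and succinate to ubiquinone, complex III hands them on to cytochrome c, and complex IV reduces oxygen. The proton gradient built on the way drives ATP synthase. Most subunits are encoded in the nucleus and imported, while the catalytic heart of complexes I, III, IV and the proton channel of ATP synthase also need subunits made from mitochondrial DNA, and resting lymphocytes expand this machinery when they are activated and divide.

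Promoters of these genes are shown first because many are known to carry sites for the nuclear respiratory factors. RefSeq windows on GRCm38.p6, from 250 bases before to 50 after the annotated start, matched 87 of the 107 members. On either strand, 21 of the 87 (24.1%) held the core of the NRF1 motif (the 10 letters in capitals in the Atp5c1 stretch below, with any base as the sixth), against 5.19% of 27025 genes with such a window. The letters CCGGAAG, the core bound by ETS factors such as GABP (NRF2), were in 26 (29.9%), against 9.93%. The YY1 motif AAGATGGCG was in 9 (10.3%), against 1.64%; it can share its first 3 letters with the end of the ETS core. At least 1 of the 3 was in 47 members (54.0%), against 15.1% of all genes and 20.0% of 17492 protein-coding genes. Among those protein-coding genes the NRF1, ETS and YY1 letters were in 7.17, 12.9 and 2.14%. Of the 14 members that were higher in KO_se than in WT_se (below), 12 had a window and 8 of them a match. A match is a run of letters, not a measured binding site.

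The stretches before the start of 5 of those 8 follow, cut where the next annotated gene begins. Each is written 5′ to 3′ on the strand of the member, with the matches in capitals (CTTCCGG is the ETS core on the other strand). Atp5c1 (chr2:10080433-10080550, minus strand) encodes the rotor subunit gamma, Atp5h (chr11:115419920-115420093, minus) a stalk subunit, Sdhd (chr9:50603850-50603900, minus) a membrane anchor of complex II, Cox6b1 (chr7:30626115-30626364, minus) a complex IV subunit and Ndufb7 (chr8:83566508-83566757, plus) an accessory subunit of complex I.
Atp5c1: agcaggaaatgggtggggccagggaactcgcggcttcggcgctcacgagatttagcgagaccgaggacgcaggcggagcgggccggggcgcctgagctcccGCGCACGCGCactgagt
Atp5h: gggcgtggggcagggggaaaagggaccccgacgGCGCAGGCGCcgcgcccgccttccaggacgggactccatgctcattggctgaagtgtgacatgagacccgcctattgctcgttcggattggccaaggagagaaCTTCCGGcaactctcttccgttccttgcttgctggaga
Sdhd: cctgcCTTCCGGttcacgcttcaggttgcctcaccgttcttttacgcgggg
Cox6b1: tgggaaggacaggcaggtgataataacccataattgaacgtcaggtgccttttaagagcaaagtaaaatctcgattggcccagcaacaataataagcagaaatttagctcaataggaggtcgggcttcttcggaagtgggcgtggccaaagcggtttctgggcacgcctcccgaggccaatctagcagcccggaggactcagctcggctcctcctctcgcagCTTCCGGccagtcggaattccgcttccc
Ndufb7: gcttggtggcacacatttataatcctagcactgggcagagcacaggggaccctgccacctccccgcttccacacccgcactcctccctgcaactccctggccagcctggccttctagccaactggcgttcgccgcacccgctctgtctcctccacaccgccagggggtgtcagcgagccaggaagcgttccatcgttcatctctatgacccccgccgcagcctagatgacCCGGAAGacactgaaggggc
The first 3 of these starts lie 118, 174 and 51 bases from the next annotated gene, which is Kin, Kctd2 and Timm8b in turn. Atp5c1 has another annotated start, 40 bases from Kin, whose window held no match. That start lies within the printed stretch, so the NRF1 core comes after it. The Sdhd window also holds an NRF1 core 79 bases before the start, inside Timm8b and so not printed.

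Libraries held 36.9 to 58.4 M estimated counts. T cell and B cell markers were detected throughout, the lowest of 10 in each list at a mean of 92.1 and 125 CPM. Genes of salivary gland, which lies beside this node, ranged over 7.01 to 14.4% of counts for WT_se, 2.05 to 3.33% for WT_DTH, 2.83 to 6.81% for KO_se and 4.14 to 9.46% for KO_DTH. In bulk tissue fewer cells of a type and less RNA per cell cannot be told apart. The members' own share was 0.472% ± 0.0143 before and 0.622% ± 0.0426 after challenge for WT, and 0.624% ± 0.0205 and 0.606% ± 0.0472 for KO (SD, n = 3). With mitochondrially encoded, salivary and immunoglobulin genes left out of the total these shares were, in the same order, 0.656, 0.679, 0.772 and 0.745%.

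Per kilobase of exon, the highest mean level over the 12 libraries was that of Cox7a2l, a protein that joins complexes III and IV into supercomplexes, at 165 CPM per kb. Cox8a followed at 159, the catalytic-part subunits Atp5a1 and Atp5b of ATP synthase were at 143 and 121, and Cox4i1, the first nuclear subunit to enter complex IV, was at 127. By role, the median level was 69.7 CPM per kb for the F1 part of ATP synthase and 47.8 for complex IV subunits. It was 36.3 for complex III, 32.7 for complex II, 32.3 for the ATP synthase membrane part and stalk, and 23.2 and 19.6 for accessory and core subunits of complex I. Assembly factors, which act in building the complexes and are not kept in them, were lower, with medians of 3.65 (complex I), 5.35 (complex II) and 5.73 CPM per kb (complex IV). The tested isoforms and related proteins had a median of 1.11, with Cox7a2l as the exception. Lengths are exon unions of an older annotation than that of the table, so this order is approximate.

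In nodes taken after sensitization alone, members of complexes I, II and IV and of ATP synthase were more abundant in the knockout. Between KO_se and WT_se, 14 of the 103 tested members rose and 0 fell at an adjusted p under 0.05 (edgeR quasi-likelihood test, Benjamini-Hochberg over 20034 genes). That is 13.6% of the members, against 3.76% of all tested genes called higher and 1.4% called lower. Among other protein-coding genes with a mean of at least 10 CPM, 5.69% were called higher, and a larger share of the short ones (below). The log2 fold change was above 0 for 95 of 103, with a median of 0.30, against −0.01 over all tested genes. In 49 members (47.6%) the KO_se libraries all lay above the WT_se libraries, against 15.1% of all genes. Summed over the members, WT_se libraries had 5296, 5706 and 5096 CPM and KO_se libraries 6275, 6126 and 6399 CPM, without overlap.

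**Figure D1:**
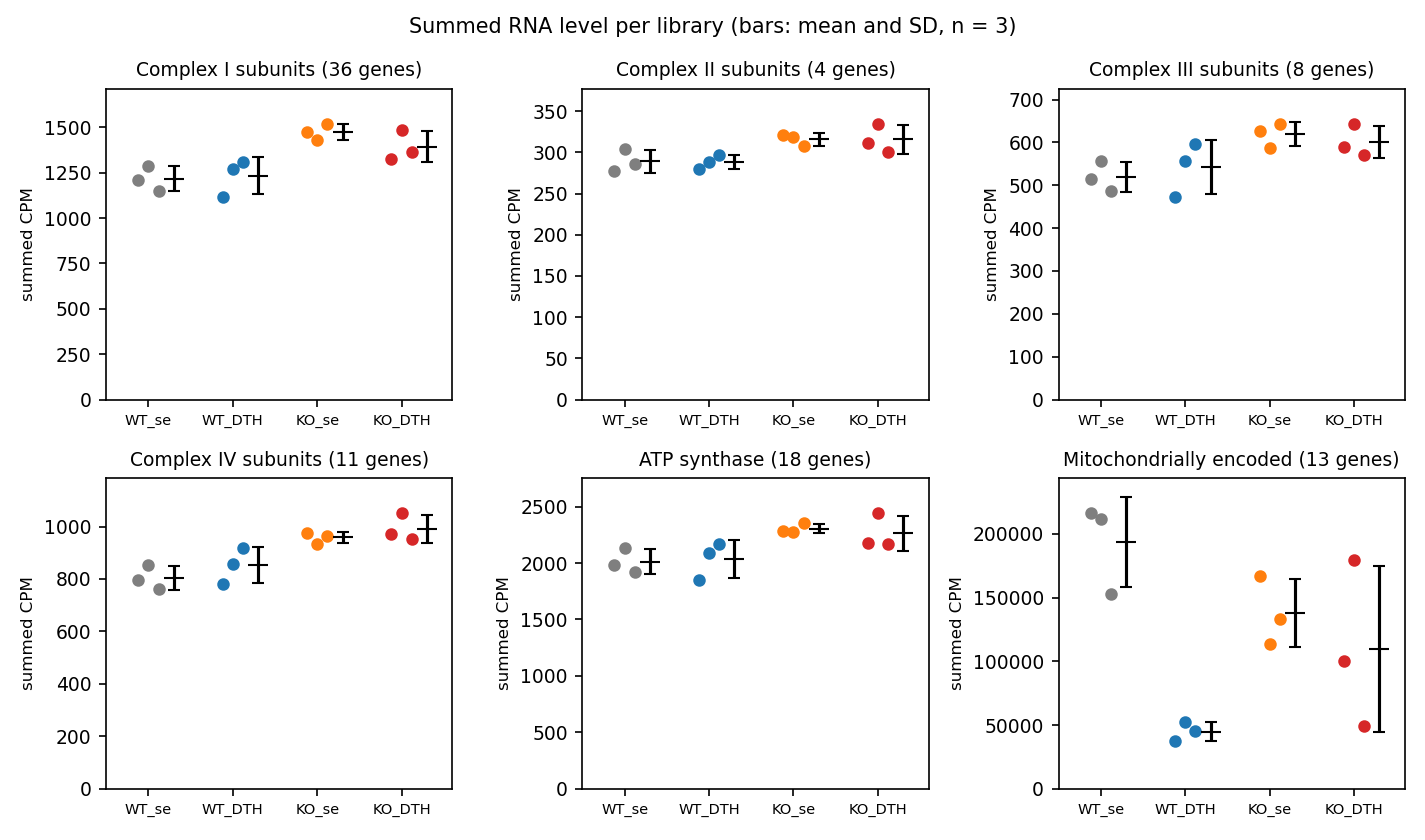
Summed CPM per library (y axis, from 0) for nuclear subunits of each complex and for the mitochondrially encoded genes, by group (x axis); points are libraries and bars the mean and SD of 3. The KO_se points lie above the WT_se points in all 5 nuclear panels, while in the mitochondrial panel WT_DTH is lowest at 37303 to 52040 CPM.

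Of the 14, 6 belonged to complex I. Ndufa3, an accessory subunit of its membrane arm, had 25.3, 28.1 and 26.0 CPM in WT_se and 38.2, 38.1 and 39.6 in KO_se. All KO_se libraries were above all WT_se libraries, a log2 fold change of 0.55 ± 0.09 (SE; adjusted p = 0.00527, edgeR). Ndufs8, a core subunit that carries iron-sulfur clusters, had 34.7, 34.0 and 27.9 CPM in WT_se against 44.3, 49.3 and 51.3 in KO_se. The groups did not overlap (log2 fold change 0.59 ± 0.11, edgeR adjusted p = 0.0118). Ndufaf3, an assembly factor, was low, at 6.04, 5.97 and 6.38 CPM in WT_se and 11.2, 11.9 and 9.51 in KO_se, yet had the largest change of the 14 (0.83 ± 0.17, edgeR adjusted p = 0.0177). Its start lies 47 bases from that of Dalrd3, so without stated strand settings their reads may be hard to separate. The accessory subunits Ndufb7, Ndufa2 and Ndufa7 rose by log2 0.39, 0.50 and 0.38.

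In ATP synthase the called members were Atp5c1, Atp5h and Atp5j2. Atp5c1 had 120, 129 and 112 CPM in WT_se and 160, 156 and 172 in KO_se, again without overlap (0.43 ± 0.08, edgeR adjusted p = 0.0132). Atp5h rose by log2 0.45 and Atp5j2, a small membrane subunit, by 0.51. The catalytic subunit Atp5b had 496, 522 and 493 CPM in WT_se and 492, 510 and 518 in KO_se, so its groups overlapped. In complex IV, Cox6b1 had 56.4, 69.0 and 52.1 CPM in WT_se and 87.0, 81.2 and 81.9 in KO_se, each KO_se library above each WT_se library (0.49 ± 0.11, edgeR adjusted p = 0.0223). Ndufa4, a complex IV subunit in spite of its name, and Cox6c rose by log2 0.43 and 0.41. In complex II the iron-sulfur subunit Sdhb and the anchor Sdhd rose by 0.33 and 0.37, whereas the flavoprotein Sdha, at 140, 152 and 144 CPM in WT_se, had 150, 146 and 140 in KO_se. None of the 8 complex III subunits passed the threshold, although 6 had an unadjusted p under 0.05, as did 22.0% of all tested genes. Cox15, needed for haem A synthesis, was the one member with all KO_se libraries below all WT_se libraries, as were 12.9% of genes (log2 fold change −0.18, edgeR adjusted p = 0.372).

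**Figure D2:**
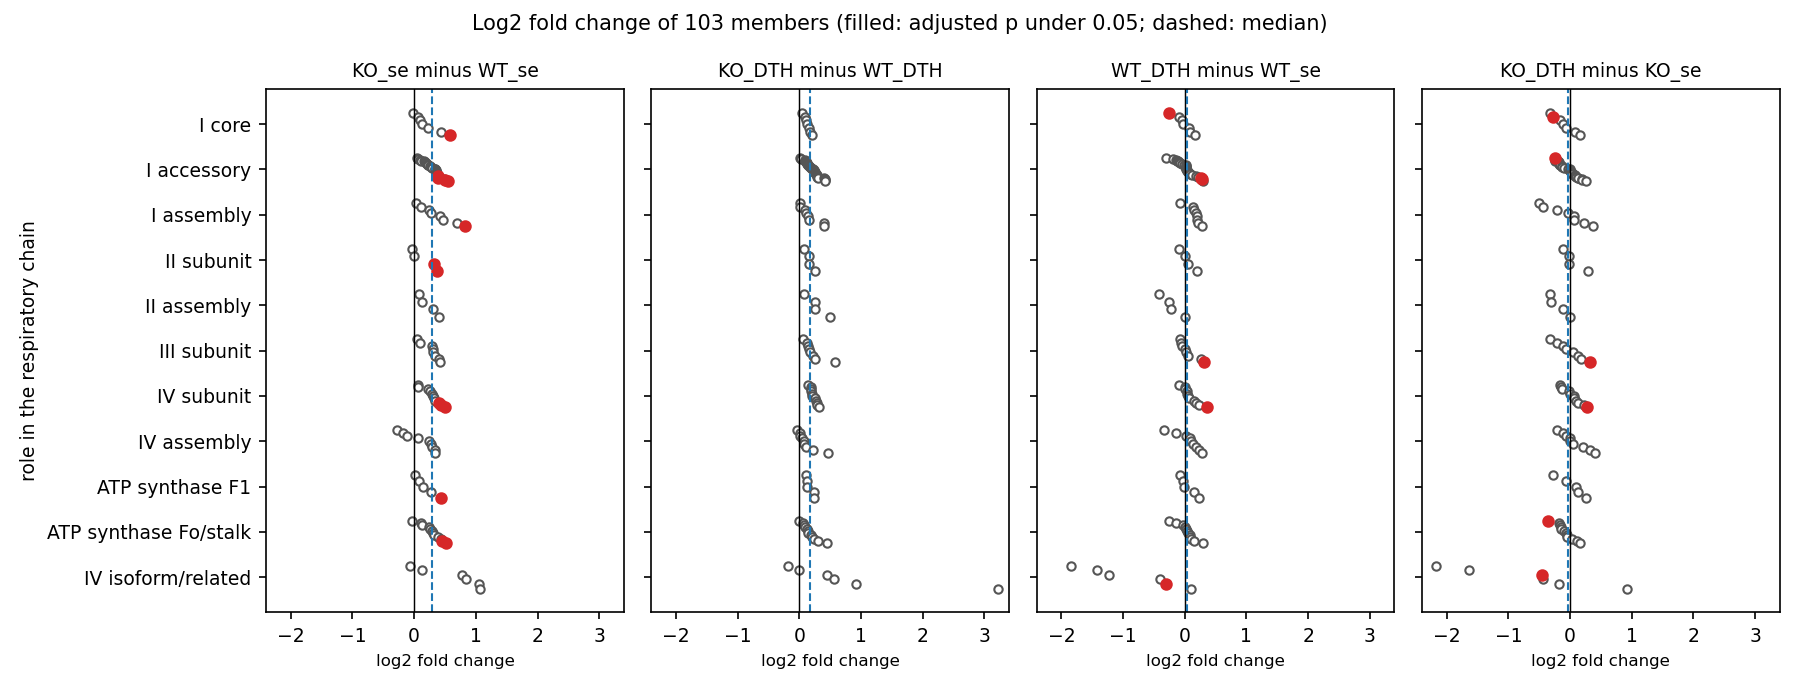
Log2 fold change of each tested member (x axis) by role (y axis) in the 4 comparisons of 2 groups; filled points passed an adjusted p of 0.05 and the dashed line is the median. Most members lie to the right of 0 in both genotype panels (95 and 100 of 103), with medians of 0.30 and 0.17, and around 0 in both challenge panels.

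The count of 14 depended on single libraries. It was 4 without WT_se replicate 1, WT_se replicate 3, KO_se replicate 1 or KO_se replicate 2, 6 without KO_se replicate 3 and 23 without WT_DTH replicate 1, and Ndufa3 and Ndufs8 passed in all 12 such fits. The share of all genes called in either direction moved too. It was 5.17% in the main fit and, in the order given, 2.05, 2.72, 2.49, 1.77, 3.58 and 5.27%. The DESeq2 Wald test called 28, all higher, against 11.5% of all genes called in either direction. With a score of salivary genes as covariate 0 were called, against 0.0749% of all genes, and the median was 0.42. Salivary share differed between the groups, and the members' median SE in that fit was 0.17, against 0.11 in the main fit. A fit without the most salivary library of every group (WT_se replicate 3, WT_DTH replicate 2, KO_se replicate 3, KO_DTH replicate 2) called 0, against 1.75% of all genes, with a median of 0.20.

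Exon length and markers of dividing cells moved with this difference. Among other protein-coding genes with a mean of at least 10 CPM, the median log2 fold change between KO_se and WT_se was 0.24 for 131 genes of up to 1000 bases of exon and 0.18 for 684 genes of 1000 to 2000 bases. It was 0.08 for 2267 genes of 2000 to 4000 bases and −0.03 for 5039 longer genes. From the shortest to the longest class, 67.9, 75, 62.9 and 43.0% of these other genes were above 0, beside 95 of 103 members of all lengths. The members' medians in the same classes were 0.35, 0.29, 0.23 and 0.08, from 25, 36, 27 and 15 members. In the shortest class 2 of the 25 members were called higher, against 18.3% of the other genes, and in the next class 8 of 36, against 12.6%. From 2000 to 4000 bases it was 3 of 27 members, against 8.34%, and in the longest class 1 of 15, against 3.23%. Summed markers of dividing cells, 16 genes with none at 0, ranged from 350 to 464 CPM in WT_se and 818 to 1002 in KO_se. Summed markers of plasma cells (12 genes, none at 0) ranged from 1403 to 1714 and from 2379 to 3071 CPM, and those of B cells (10 genes, none at 0) from 1821 to 2265 and from 2478 to 3488. Myeloid markers (13 genes, none at 0) ranged from 666 to 780 CPM in WT_se and 931 to 1299 in KO_se. At the adjusted threshold 16 of 16 dividing-cell, 6 of 12 plasma cell, 3 of 10 B cell and 3 of 13 myeloid markers rose. In these 4 lists the groups' sums did not overlap, whereas T cell markers (10 genes, none at 0) overlapped, at 1791 to 2110 and 1594 to 1908 CPM. Salivary acinar markers summed to 78402 to 158929 CPM in WT_se and 26744 to 68978 in KO_se. Salivary duct markers summed to 608 to 995 and 287 to 372 CPM, and skeletal muscle markers to 39.8 to 41.7 and 47.0 to 56.3. These sums did not overlap either, while those of adipocyte, red cell, pericyte and smooth muscle, and node stroma markers did. The part of these cell types and of transcript length in the members' difference was not tested.

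**Figure D3:**
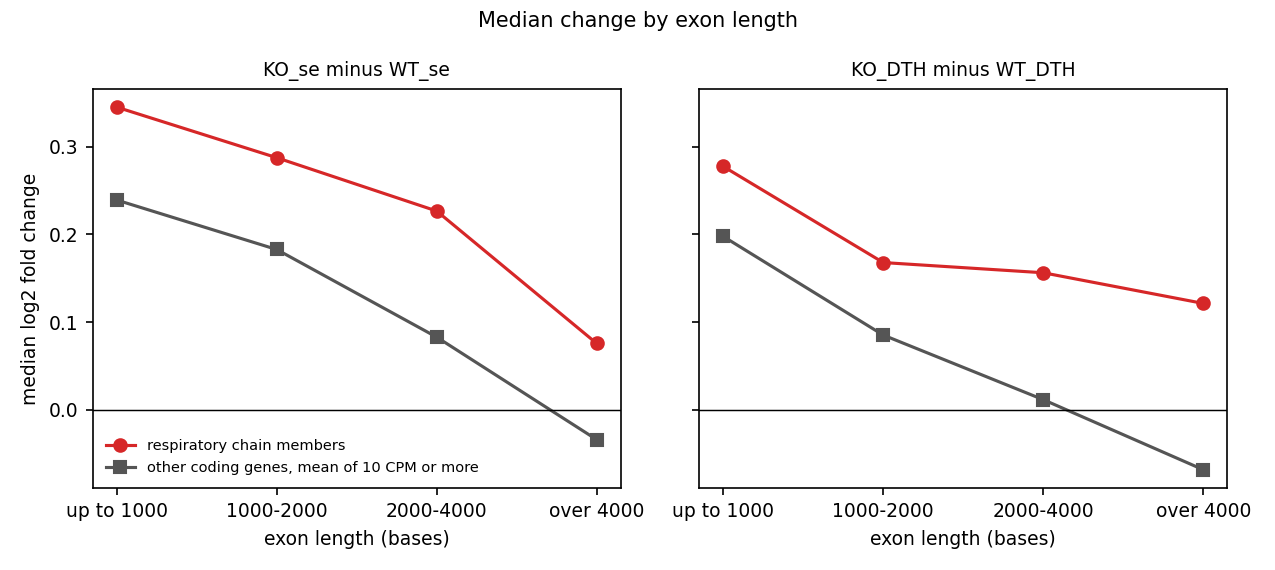
Median log2 fold change (y axis) by exon length class (x axis, bases) for the members and for other protein-coding genes with a mean of at least 10 CPM, in the sensitized (left) and challenged (right) genotype comparison. Both lines fall with length; for genes of up to 1000 bases the members are at 0.35 and other genes at 0.24 on the left, and at 0.28 and 0.20 on the right.

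After challenge the genotype difference of single members did not pass the threshold. Between KO_DTH and WT_DTH, edgeR called 0 of 103 members, against 0.599% of all genes, 27 had an unadjusted p under 0.05 (14.1% of all genes) and the DESeq2 Wald test called 4 (4.65% of all genes). The log2 fold change was above 0 for 100 of 103 with a median of 0.17, against 0.01 over all genes, and in 32 members (31.1%) all KO_DTH libraries lay above all WT_DTH libraries, against 10.1% of genes. The smallest p belonged to Cox8a, a small complex IV subunit, with 84.1, 87.1 and 99.2 CPM in WT_DTH and 110, 114 and 107 in KO_DTH. The groups did not overlap (log2 fold change 0.29 ± 0.07, edgeR adjusted p = 0.0859). Atp5j2, with 50.2, 61.2 and 68.0 CPM in WT_DTH and 82.1, 87.2 and 75.9 in KO_DTH, had a log2 fold change of 0.45 ± 0.12 (edgeR adjusted p = 0.111). Cox6b1 had 63.1, 70.5 and 75.7 CPM against 87.6, 95.5 and 78.6, also without overlap. Ndufs8, called before challenge, had 31.0, 37.2 and 39.8 CPM in WT_DTH and 36.3, 38.4 and 40.7 in KO_DTH, so that its groups overlapped (log2 fold change 0.10).

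Other coding genes again varied with length, with medians of 0.20, 0.09, 0.01 and −0.07 from the shortest to the longest class, where the members had 0.28, 0.17, 0.16 and 0.12. In the same order, 84.0, 72.5, 52.4 and 32.0% of those other genes were above 0, beside 100 of 103 members of all lengths. Dividing-cell markers summed to 420 to 588 CPM in WT_DTH and 646 to 694 in KO_DTH. With the salivary score as covariate the members' median was 0.02, 61 of 103 were above 0 and 0 were called (0.015% of all genes), and without WT_DTH replicate 1 the median was 0.09. Over all genes the medians of these fits were 0.04 and −0.02. With the score the members' median SE was 0.21, against 0.11 in the main fit. Without KO_DTH replicate 3, 1 member passed, against 2.26% of all genes.

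The genotype comparisons before and after challenge share no library. The log2 fold change was above 0 in both for 93 of 103 members, against 26.8% of all tested genes, and 21 had all KO above all WT libraries in both, against 2.3%. Those shares cover genes of every length and level. Short coding genes were more often above 0 in each comparison (above), and their share in both was not computed. All 14 members called before challenge were above 0 after it, 7 of them without overlap. Of the 754 genes called higher before challenge, 73.6% were above 0 after it and 29.4% were so without overlap. In 11 members every one of the 6 KO libraries exceeded every one of the 6 WT libraries, as in 1.32% of all tested genes: Ndufa1, Ndufa3, Ndufa7, Ndufb3 and Ndufb9 of complex I, Uqcr11 of complex III, Cox6b1, Cox8a and Ndufa4 of complex IV, and Atp5c1 and Atp5j2 of ATP synthase. These 11 were chosen by their values and are a description.

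**Figure D4:**
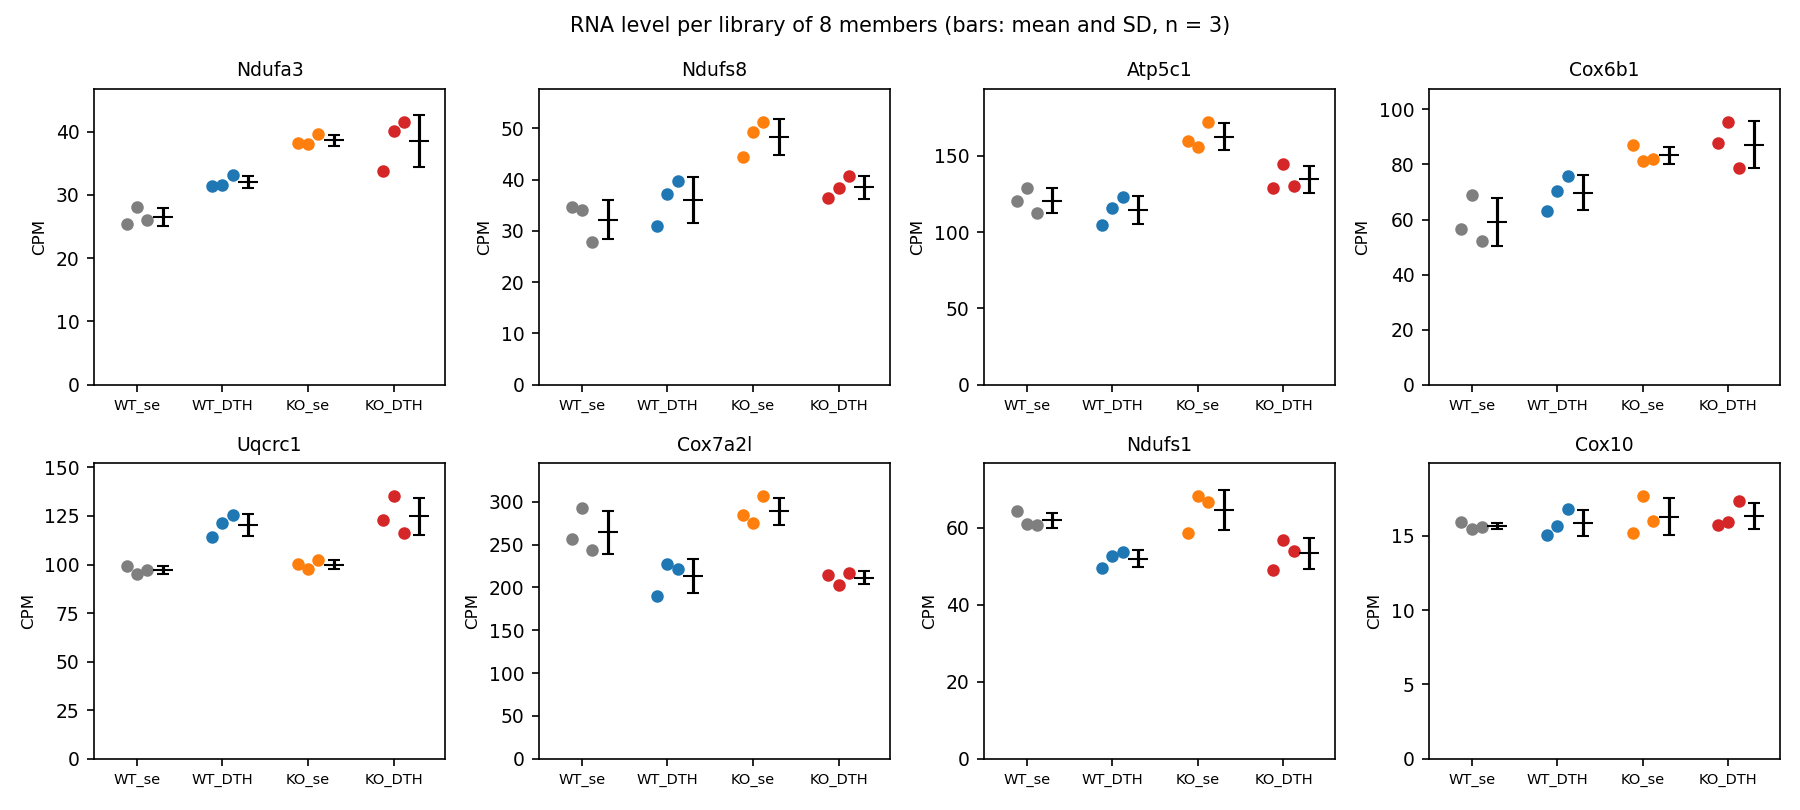
CPM per library (y axis, from 0) of 8 members by group (x axis); points are libraries and bars the mean and SD of 3. Ndufa3, Atp5c1 and Cox6b1 are higher in all KO than in all WT libraries, Uqcrc1 is higher and Cox7a2l and Ndufs1 lower in both DTH groups than in the se groups, and Cox10 lies between 15.1 and 17.7 throughout.

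Few members passed the threshold with challenge. In wild type, between WT_DTH and WT_se, 4 of 103 rose and 2 fell (5.83%), against 9.77% and 8.97% of all genes (18.7% in either direction), and the median was 0.03. In the knockout, between KO_DTH and KO_se, 2 rose and 4 fell (5.83%), against 5.81% and 3.86% (9.67% in either direction), with a median of −0.04. Groups did not overlap in the higher direction for 5 members in wild type and 10 in the knockout (17.6% and 15.1% of genes), and in the lower direction for 8 and 17 (17.9% and 14.9% of genes). In both genotypes 3 members passed in the same direction, against 5.77% of all genes, and these comparisons share no library. They were 3 of the 6 called in each genotype, where 30.8% of all genes called in wild type and 59.6% of those called in the knockout were shared.

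Cell type markers moved with challenge. In wild type the summed myeloid markers went from 666 to 780 CPM to 1678 to 2619 (12 of 13 rose), B cell markers from 1821 to 2265 to 2765 to 3498 (7 of 10 rose) and T cell markers from 1791 to 2110 to 1116 to 1453 (8 of 10 fell). Red cell markers (11 tested) went from 7616 to 14857 CPM to 2016 to 2254, and 7 fell. Dividing-cell markers, whose sums overlapped, went from 350 to 464 CPM to 420 to 588 (4 of 16 rose). Of 12 plasma cell markers 3 rose and 2 fell. In the knockout, dividing-cell markers went from 818 to 1002 CPM to 646 to 694 (5 of 16 fell) and myeloid markers from 931 to 1299 to 1724 to 1945 (7 of 13 rose). The part of these cell types in the members' values was not tested.

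Uqcrc1, a core protein of complex III, had 99.4, 95.2 and 97.3 CPM in WT_se and 114, 121 and 125 in WT_DTH, and 100, 97.6 and 102 in KO_se against 123, 135 and 116 in KO_DTH. Both challenged groups lay wholly above their controls, by log2 0.31 ± 0.07 in wild type (edgeR adjusted p = 0.0106) and 0.32 ± 0.07 in the knockout (0.0142). Cox7a2l fell from 256, 293 and 244 CPM in WT_se to 191, 227 and 222 in WT_DTH, and from 285, 275 and 307 in KO_se to 214, 203 and 217 in KO_DTH. Its log2 fold changes were −0.31 ± 0.09 (edgeR adjusted p = 0.0317) and −0.45 ± 0.09 (0.00842), again with no overlap. Ndufs1, the largest core subunit of complex I, fell from 60.8 to 64.2 CPM in WT_se to 49.5 to 53.6 in WT_DTH. In the knockout it fell from 58.6 to 68.2 CPM to 49.1 to 56.9. The changes were −0.25 and −0.28, with edgeR adjusted p of 0.0443 and 0.0497.

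In wild type Cox5a, Ndufb7 and Ndufa3 also rose, by log2 0.35, 0.26 and 0.28. In the knockout Cox6a1 rose by 0.27, and Ndufa10, an accessory subunit of complex I, and Atp5h had changes of −0.25 and −0.35. Atp5h thus went from 121, 127 and 143 CPM in KO_se to 97.1, 104 and 105 in KO_DTH, next to 91.0, 98.1 and 101 in WT_DTH. Leaving out single libraries gave 1 to 7 calls in wild type, 1 without WT_DTH replicate 3, 2 without WT_se replicate 1, WT_se replicate 3 or KO_se replicate 2, and 3 without WT_se replicate 2. In the knockout it gave 1 to 5, 1 without KO_se replicate 2 or KO_DTH replicate 2, 2 without KO_se replicate 3 or KO_DTH replicate 1, and 3 without WT_se replicate 1, WT_DTH replicate 2, WT_DTH replicate 3 or KO_se replicate 1. Of all genes, these fits called 12.3 to 18.7% in wild type and 4.98 to 9.74% in the knockout. Uqcrc1 in wild type and Cox7a2l in the knockout passed in all 12 fits. Uqcrc1 in the knockout passed in 10, Cox7a2l in wild type in 6, and Ndufs1 in 2 for wild type and 1 for the knockout. With the salivary score as covariate 0 members were called in either genotype, against 0.629% and 4.15% of all genes, and the members' medians were 0.22 and −0.13. Their median SE was 0.23 and 0.15 in that fit, against 0.11 for each in the main fit. The DESeq2 Wald test called 7 and 12 members, against 22.7% and 14.9% of all genes.

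For no member did the difference between genotypes in the response to challenge pass the threshold. The interaction called 0 of 103, against 2.11% of all genes, 4 had an unadjusted p under 0.05 (16% of all genes) and DESeq2 called 0 (6.19% of all genes). The smallest p was that of Ndufs8 (log2 −0.49 ± 0.16, edgeR adjusted p = 0.134), which had KO_se libraries at 44.3 to 51.3 CPM and all other libraries at or below 40.7.

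The 13 mitochondrially encoded subunits of the same complexes were measured beside the nuclear members. They summed to 216503, 211779 and 152781 CPM in WT_se and 37303, 52040 and 45183 in WT_DTH, and all 13 fell between these groups, by log2 −2.50 to −1.88. KO_se libraries had 166526, 113744 and 132915 CPM and KO_DTH libraries 100043, 179141 and 49560, and 0 of the 13 passed between those groups. The ratio of mitochondrially encoded to nuclear member CPM was thus 36.0 ± 5.53 before and 8.23 ± 0.98 after challenge for WT, and 22.0 ± 4.12 and 17.7 ± 9.62 for KO (SD, n = 3). In KO_DTH single libraries spanned 8.45 to 27.7.

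Within complexes the ratio was 107 in WT_se and 24.6 in WT_DTH for complex IV, 51.3 and 11.5 for complex I, 53.6 and 10.5 for complex III and 8.34 and 1.95 for ATP synthase, lower in WT_DTH for each. The share of salivary genes fell between the same groups, from 7.01 to 14.4% to 2.05 to 3.33%. With the salivary score as covariate 0 of the 13 passed between WT_DTH and WT_se, against 0.629% of all genes. In that fit mt-Nd5 was at log2 −0.82 in place of −2.19. The part of salivary tissue in the mitochondrial values was not tested. Over 12 libraries the nuclear sum had a Pearson r of 0.29 with the mitochondrial sum and 0.84 with the dividing-cell markers. These values share library and scaling and are a description.

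**Figure D5:**
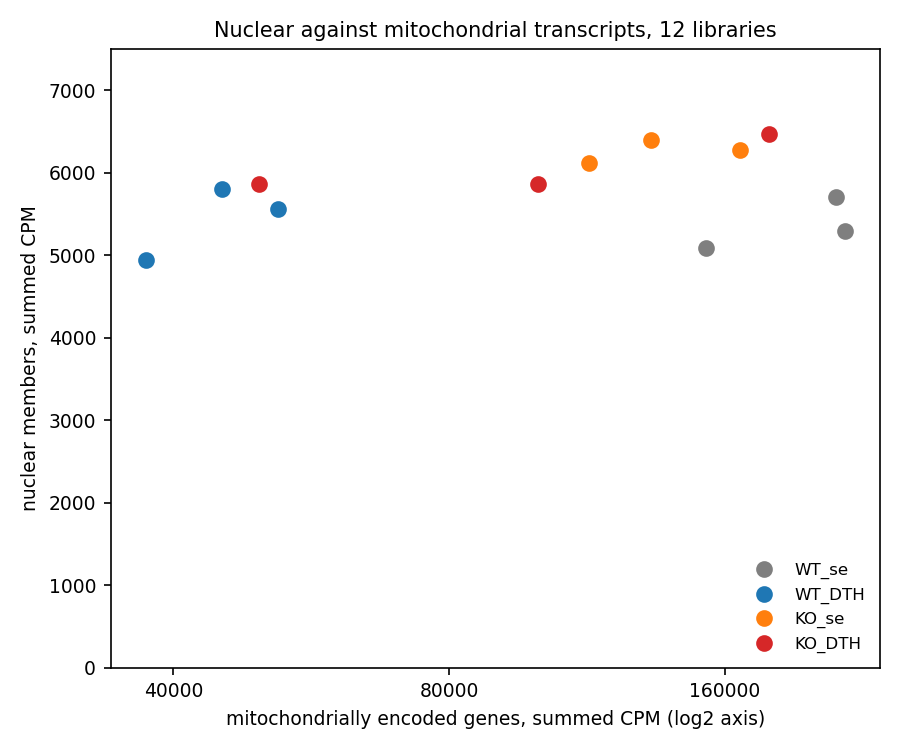
Summed CPM of the nuclear members (y axis, from 0) against that of the 13 mitochondrially encoded genes (x axis, log2 scale); each point is 1 of 12 libraries, coloured by group. The nuclear sum stays between 4939 and 6476 CPM while the mitochondrial sum runs from 37303 to 216503, and KO_DTH libraries spread over most of that range.

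Tissue-restricted isoforms of complex IV were scarce beside their widely expressed partners. Cox4i2, the isoform of lung and hypoxic cells, made up 0.461 and 0.120% of the counts of Cox4i1 plus Cox4i2 before and after challenge for WT, and 0.741 and 0.153% for KO. WT libraries had 1.44, 0.375 and 0.785 CPM before and 0, 0.422 and 0.281 after challenge. KO libraries had 1.50, 1.66 and 1.28 CPM before and 0.557, 0.221 and 0.193 after it. KO_se and KO_DTH did not overlap, but the change of −2.17 ± 0.84 did not pass (edgeR adjusted p = 0.128). The muscle isoforms Cox6a2 and Cox7a1 made up 0.598 to 2.11% and 1.08 to 2.96% of their pairs by group mean, and Cox8b at most 0.320%. Cox7a1 had 1.18, 1.10 and 1.29 CPM in WT_se and 0.523, 0.440 and 0.369 in WT_DTH, with no overlap (−1.42 ± 0.51, edgeR adjusted p = 0.0742). Skeletal muscle markers summed to 36.0 to 56.3 CPM over the libraries, with Myh1 at 0, and pericyte and smooth muscle markers to 7.16 to 24.6, lowest in WT_DTH. Their part in the isoform levels was not tested.

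The c-ring of ATP synthase is encoded by 3 genes whose products end as the same mature protein. Atp5g3 gave 48.7, 47.4, 45.8 and 48.7% of their counts in WT_se, WT_DTH, KO_se and KO_DTH by group mean. Atp5g2 gave 39.3, 42.7, 44.2 and 42.0%, and Atp5g1 11.9, 9.90, 9.99 and 9.32%. For Atp5g2 the WT_se range of 38.4 to 40.5% lay below that of KO_se at 41.8 to 45.7%.

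The mature miR-451a in RefSeq is shown with its seed, bases 2 to 8, in capitals, above the only 2 matches to that seed found in a 3′ UTR of the members, both in Cox10.
mmu-miR-451a: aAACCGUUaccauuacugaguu
Cox10 first match: tggggattccaAACGGTTgcctgcagatc
Cox10 second match: gccacacagaaAACGGTTcttgaatttgg
Of 106 members with an annotated 3′ UTR, 1 held the complementary AACGGTT, against 1.83% of 21016 genes. The matches begin at bases 667 and 1178 of a UTR of 1495 bases. Cox10 makes haem O, a step towards the haem A of complex IV. In WT nodes it had 15.9, 15.5 and 15.6 CPM before and 15.1, 15.7 and 16.8 after challenge. In KO nodes it had 15.2, 17.7 and 16.0 CPM before and 15.7, 15.9 and 17.3 after challenge. The groups overlapped in every comparison, and the genotype log2 fold changes were 0.06 ± 0.10 and 0.04 ± 0.10 (edgeR adjusted p = 0.809 and 0.919).

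Other nuclear genes of the organelle were read from lists, to be set against the 3.76% of all genes that rose and 1.4% that fell between KO_se and WT_se. Between KO_se and WT_se, 2 of 20 import genes rose, Timm8b and Timm8a1, by log2 0.60 and 0.68. Timm8b, the neighbour of Sdhd printed above, had 8.40 to 11.1 CPM in WT_se and 12.7 to 17.5 in KO_se. Of 19 genes of the citric acid cycle 1 rose, fumarase (Fh1), from 29.2, 28.3 and 29.1 CPM to 43.1, 40.9 and 43.7 (0.56 ± 0.08, edgeR adjusted p = 0.00243). Of 18 genes of mitochondrial genome upkeep and expression 2 rose, the mitochondrial transcription factor Tfam (0.35) and Slirp (0.58), and the polymerase subunit genes Polg and Polg2 fell, by 0.34 and 0.40. Of 17 carriers and associated genes 1 rose, Atpif1 (0.54), the inhibitor of ATP synthase, and of 28 other assembly genes 1, Higd1a (0.48). Among 18 regulators the factors behind the printed motifs did not pass for Nrf1 (0.15), Gabpa (0.07) and Yy1 (−0.06), while Gabpb1, the partner of Gabpa, fell by 0.32.

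With challenge, Tomm40, the import channel, rose in both genotypes, by log2 0.58 and 0.60, as did the coactivator Pprc1 (0.50 and 0.76) and the copper chaperone Sco1 of complex IV (0.51 and 0.56), and Pdha1 of pyruvate dehydrogenase fell (−0.51 and −0.29). In wild type 5 of 19 citric acid cycle genes fell and 0 rose, 3 of 20 import genes rose and 0 fell, and 3 of 18 regulators rose and 3 fell. In the knockout 1 of 19 rose and 1 fell, 1 of 20 rose and 0 fell, and 2 of 18 rose and 0 fell. Of all genes, 9.77% rose and 8.97% fell in wild type and 5.81% and 3.86% in the knockout. After challenge, 1 of these genes was higher in the knockout, Esrrg, and 1 lower, Coq8a.

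Most members varied with their common mean over the 12 libraries. The Pearson r of a member with the mean of all tested members, itself included, had a median of 0.76, and it was over 0.5 for 81 of 103. The share of other genes over 0.5 is not given here. The lowest values were those of the haem and copper assembly genes Cox15 (−0.43) and Cox11 (−0.32), and the highest that of Ndufa4 (0.99). Sums of complex I accessory and ATP synthase stalk genes each correlated with the sum of the members at r = 0.99, which includes them, and the complex IV isoforms at 0.37. Outside the rule, the genes most alike in pattern were Tomm7, Cdk4, Rpl36al, Mrpl42 and Rpl41, with r from 0.93 to 0.96 over 12 libraries. These points share libraries, groups and scaling, and the values are a description.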

How the data were processed

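The table holds estimated counts for 12 libraries, deposited by the authors as whole numbers, so none were rounded. Per the submitters' processing notes, fastp 0.23.2, HISAT2 2.2.1 and StringTie 2.2.1 were used with GRCm39; the strand setting of the counting is not given in the sources used here. Symbols, biotypes and exon lengths came from GENCODE vM21 and promoters from RefSeq, both on the earlier GRCm38 build, and were matched by Ensembl ID or symbol.

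Groups were taken from the labels. The members, role groups, gene lists and motifs were chosen with earlier results of these data known. Counts were tested with edgeR 4.0.16 (R 4.3.3) by the quasi-likelihood test, scaling by TMM, a filter on low values (filterByExpr, minimum 10) and 1 mean per group over all 12 libraries (8 residual degrees of freedom). P-values are two-sided and adjusted by Benjamini-Hochberg over the 20034 genes kept, with a threshold of 0.05. The scripts were tested on simulated data. CPM are on TMM-scaled library sizes, fold changes are ± SE and group values ± SD.

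The genes named were a set list of isoforms, core subunits and haem assembly genes, the 6 of smallest p in each direction of a comparison, the member of largest change in each role, those not tested, and 3 of smallest p per list. The called members beyond those 6 (such as Atp5h, Ndufa2, Ndufa7, Sdhd and Cox6c), Nrf1, Gabpa, Gabpb1, Yy1, Cox11, Tfam, Timm8b beside Sdhd and the 11 members without overlap were named after their values were seen. Near-identical processed pseudogenes of some members can take or give reads. The 9 genes with -ps in the symbol were left out and held 0.51% as many counts as the members. Most of those counts, 15588, were of Ndufb1-ps, which the annotation types as a bidirectional promoter lncRNA and not as a processed pseudogene. Alternatives were DESeq2 1.42.0, its size factors, scaling without mitochondrial, salivary and immunoglobulin genes, other filters, a replicate block, salivary covariates, only the libraries compared, and leaving out libraries.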

Additional observations from a re-analysis of the deposited data

Results flagged for a closer look

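The difference between genotypes in the response to challenge passed the threshold for 3 genes of the lists and for 0 of the members. Esrrg, a nuclear receptor that acts on respiratory genes, had an interaction of log2 5.23 ± 0.78 (edgeR adjusted p = 0.0237), with 6.50, 4.20 and 5.69 CPM in WT_se, 0.591, 0.330 and 0.228 in WT_DTH, 1.55, 1.12 and 0.748 in KO_se and 1.83, 5.86 and 1.30 in KO_DTH. Prkaa2, a catalytic subunit of AMP-activated kinase, had 3.54 ± 0.78 (edgeR adjusted p = 0.0396). The mitochondrially encoded complex I subunit mt-Nd4l had 2.14 ± 0.51 (edgeR adjusted p = 0.0495), and all 13 mitochondrially encoded genes were above 0, from 1.52 to 2.14. Salivary genes took 7.01 to 14.4% of counts in WT_se, 2.05 to 3.33% in WT_DTH and 4.14 to 9.46% in KO_DTH, and with the salivary score as covariate the interactions were 1.98 for Esrrg and 1.21 for Prkaa2, neither past the threshold, and −0.65 for mt-Nd4l. Leaving out 1 library at a time, the interaction passed in 8 of 12 fits for Esrrg, 3 of 12 for Prkaa2 and 1 of 12 for mt-Nd4l.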

How the results depend on the processing

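Counts of members past the threshold are given against 14 (genotype when sensitized), 0 (genotype when challenged), 6 (challenge in wild type), 6 (challenge in knockout) and 0 (interaction). With the salivary score or 2 salivary components as covariates they were 0 in all 5, where 15, 3, 126, 831 and 0 of all 20034 genes were called with the score and 30, 2, 39, 441 and 1 with the components. Without the most salivary library of every group they were 0, 0, 1, 0 and 0, against 1.75, 0.414, 12.3, 3.35 and 0.837% of all genes. These fits have fewer residual degrees of freedom. With the score, the members' median SE was 0.170, 0.208, 0.231, 0.151 and 0.341. In the main fit it was 0.112 for each comparison of 2 groups and 0.159 for the interaction. Salivary share differed between groups, so the score and the group differences cannot be fully told apart, and the 0 calls decide nothing about salivary tissue. The DESeq2 Wald test gave 28, 4, 7, 12 and 0. No low-count filter gave 2 for challenge in knockout (4.57% of all genes), and using only the libraries compared gave 3 for challenge in wild type (18.3% of all genes). Leaving out single libraries gave 4 to 23, 0 to 1, 1 to 7, 1 to 5 and 0 to 0. Of all genes, those fits called 1.77 to 5.27%, 0.0671 to 2.26%, 12.3 to 18.7%, 4.98 to 9.74% and 0 to 3.99%. The members' median stayed above 0 in all of these fits for both genotype comparisons. For genotype when challenged, it was 0.02 with the score and 0.03 with the components. The median over all genes was higher in those fits, at 0.04 and 0.05. Members' shares of counts without mitochondrial, salivary and immunoglobulin genes were 0.656 and 0.679% before and after challenge for WT, and 0.772 and 0.745% for KO.

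Directions reversed in a few fits of single genes, and the cause was not tested. For challenge in wild type, Pcx (main −1.34) was at 0.28 with 2 salivary components, and Cox7a1 (main −1.42) at 0.42 with the salivary score and 0.48 with the components. The interaction of mt-Nd4l was −0.65 with the score and −0.17 with the components. Ndufs8 for genotype when challenged ranged from −0.032 (without WT_DTH replicate 1) to 0.14 over the fits that left out a library.

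Same-numbered libraries of different groups had correlated deviations of −0.0984 to 0.141 over 18 pairs, 1 of them over 0.1, and since not every pair was over 0.1 the numbers were not taken as pairing. Libraries of unlike number had −0.0802 to 0.119 over 36 pairs. That rule is strict and the labels do not explain the numbers, so whether libraries are paired stays undecided. In these data 8 of 12 libraries correlated best with one of their own number, which 3 of the 9 candidates of each share. With a replicate block the counts were 13, 0, 4, 2 and 0, against 4.39, 0.190, 17.0, 8.63 and 0.639% of all genes. Of those 13 members, 10 were among the 14 of the main fit.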
